A study of Mus musculus with 24 samples.

Results

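Chromatin accessibility was compared between 6 mice labelled Het (Q140) KI, called Q140 below, and 6 wild type mice (WT), which are 12 of the 24 animals of a series on the expanded huntingtin allele and mismatch repair. Q140 animals were heterozygous for a knock-in that carries the expanded Htt allele, and WT animals carried no targeted allele. Each group had 3 females and 3 males of the C57BL/6 background, aged 12 months, and both groups had intact Msh3, a gene of DNA mismatch repair. The other animals served to estimate the spread and, in a later comparison, as a separate set with the same Htt allele: 6 Q140_Msh3KO animals (the Het (Q140) KI allele with both copies of Msh3 lost) and 6 Msh3KO animals (Msh3 lost, Htt unaltered). Striatal nuclei were stained for NeuN, a protein of most neuronal nuclei, and 50000 sorted nuclei per animal were treated with the Tn5 transposase, which cuts and tags open DNA (ATAC-seq). A sorted sample holds every neuron type of the striatum, so fewer nuclei of a type and less open chromatin per nucleus cannot be told apart here. Of the 147020 peaks in the deposited table, 146155 had enough counts to be tested. Peaks carry the name of the gene whose start is closest, and whether they act on that gene is unknown.

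Huntington's disease is caused by a CAG repeat expansion in the huntingtin gene, which lengthens a run of glutamines in the protein. The neurons lost first are the projection neurons of the striatum, inhibitory cells that carry D1 or D2 dopamine receptors and relay dopamine signals through cAMP and calcium. Reduced expression of genes that mark these neurons is a known feature of mouse models and of patients. Polycomb complexes place repressive histone marks on the regulators of other lineages, and mature neurons keep most of those genes silent. Open chromatin marks promoters, which lie at gene starts, and enhancers, which can lie far from the genes they act on.

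The promoters below lead the comparison or lie within its longest stretch of higher peaks. They are the 250 bases before the annotated start, 5′ to 3′ on the strand of the gene, from RefSeq (GRCm38.p6), and capitals mark matches to the motifs searched. Onecut1 (a cut homeobox factor of liver, pancreas and developing neurons), Crnde (a long non-coding RNA) and Cbx8 (a Polycomb subunit) were higher in Q140. Ryr1 (an intracellular channel that releases stored calcium) and Serpinb1b (a serine protease inhibitor) were lower.
Onecut1 promoter, chr9:74861671-74861920, plus strand: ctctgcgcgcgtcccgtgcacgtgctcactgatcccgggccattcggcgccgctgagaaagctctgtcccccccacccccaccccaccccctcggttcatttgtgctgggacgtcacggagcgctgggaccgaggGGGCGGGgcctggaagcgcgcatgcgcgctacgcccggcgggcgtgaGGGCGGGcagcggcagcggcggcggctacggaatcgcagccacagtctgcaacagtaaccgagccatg
Crnde promoter, chr8:92356121-92356370, minus strand: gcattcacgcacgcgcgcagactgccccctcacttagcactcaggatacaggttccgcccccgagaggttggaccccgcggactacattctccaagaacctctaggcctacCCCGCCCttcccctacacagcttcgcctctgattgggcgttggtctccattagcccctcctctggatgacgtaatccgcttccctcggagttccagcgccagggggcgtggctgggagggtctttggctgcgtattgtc
Cbx8 promoter, chr11:119040914-119041163, minus strand: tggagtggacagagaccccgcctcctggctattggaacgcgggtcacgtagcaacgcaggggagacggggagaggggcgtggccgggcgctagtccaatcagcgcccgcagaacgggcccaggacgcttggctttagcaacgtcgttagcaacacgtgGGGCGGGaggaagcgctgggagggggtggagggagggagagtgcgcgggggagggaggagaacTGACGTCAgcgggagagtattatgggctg
Ryr1 promoter, chr7:29125152-29125401, minus strand: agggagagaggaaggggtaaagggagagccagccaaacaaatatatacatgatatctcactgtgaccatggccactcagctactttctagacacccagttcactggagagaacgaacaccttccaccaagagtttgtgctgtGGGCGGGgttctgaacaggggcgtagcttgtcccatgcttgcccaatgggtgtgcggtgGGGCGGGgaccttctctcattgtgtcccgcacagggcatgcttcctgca
Serpinb1b promoter, chr13:33083853-33084102, plus strand: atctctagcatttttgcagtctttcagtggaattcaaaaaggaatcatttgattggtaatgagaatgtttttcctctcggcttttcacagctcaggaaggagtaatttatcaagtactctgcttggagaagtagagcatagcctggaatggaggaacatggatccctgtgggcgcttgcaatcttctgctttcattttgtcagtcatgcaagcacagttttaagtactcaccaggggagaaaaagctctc
The capitals are GC boxes in the Onecut1, Crnde, Cbx8 and Ryr1 sequences, and a CRE near the start of Cbx8. The Serpinb1b sequence holds no match to any motif searched.

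Counts in peaks totalled 6848049 to 11367014 per library in Q140 animals and 5128118 to 9263371 in WT animals (n = 6 each), with a median of 28 counts in a tested peak. Promoter peaks of the neuronal genes Rbfox3 (which encodes NeuN), Snap25 and Syt1 summed to 85.1 to 122 CPM (counts relative to the library total, scaled by TMM) in Q140 animals and to 90.0 to 117 CPM in WT animals. Of 11 projection neuron markers, 10 had a promoter peak, and these summed to 256 to 332 CPM in Q140 animals and to 280 to 388 CPM in WT animals. Defining markers of other cells, such as Gfap and Aqp4 of astrocytes, Mobp of oligodendrocytes, Cx3cr1 of microglia and Cldn5 of endothelium, had no promoter peak, but 6 of 15 astrocyte and 8 of 17 oligodendrocyte genes did. Of 15 cortical glutamatergic genes, 8 had promoter peaks, which summed to 159 to 202 CPM in Q140 animals and to 148 to 211 CPM in WT animals. Q140 F2, labelled female, had 1.47% of its counts on the X chromosome, against 1.79% to 1.91% in the other Q140 and WT animals labelled female and 1.5% to 1.56% in the males. The value goes against the label, so the sex of this animal is in doubt. Counts over all peaks, over promoters and by sex are also given without it. The promoter peak of Xist, on the X chromosome, averaged 0.808 CPM in Q140 animals and 2.18 CPM in WT animals and was called lower by the test below. Of 127 tested Y chromosome peaks, 0 were called higher and 2 lower. The part of Q140 F2 in these calls was not tested. The first principal component of the 12 libraries held 22.2% of the variance, with scores of 38.6 to 72.3 in Q140 animals and -94.8 to -44.9 in WT animals (exact two-sided permutation test, p = 0.00216, the smallest that 6 against 6 animals allows).

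Q140 against WT asks how the expanded allele changes open chromatin in striatal neurons. Accessibility was higher in Q140 at 6142 peaks (4.2% of those tested) and lower at 8924 (6.11%), 15066 in all (10.3%), by edgeR's quasi-likelihood test with Benjamini-Hochberg adjustment at 0.05, which gives every adjusted p below. Fold changes are log2 of Q140 over WT. The SE given with them was derived from the test, as the absolute change divided by the square root of its F statistic. Higher peaks had a median of 0.74 (10th to 90th percentile 0.48 to 1.22) and lower peaks of -0.68 (-1.08 to -0.47), with -0.01 over all tested peaks. Changes past 2-fold were few, with 1362 higher and 1247 lower peaks. At 7414 peaks (5.07% of those tested) the CPM values of the 6 Q140 animals did not overlap those of the 6 WT animals. Of the called peaks, 2660 higher ones (43.3%) and 4063 lower ones (45.5%) were separated in this way. Called peaks were annotated to 7603 of 20850 genes, of which 1677 had peaks in both directions. Without Q140 F2, 4556 peaks were higher and 9155 lower, the setting in which higher calls were fewest. Without Q140 F2 and a Q140_Msh3KO library with many counts in few peaks, 5337 peaks were higher and 7687 lower. Without WT F3, 6018 were higher and 5886 lower, the setting in which lower calls were fewest.

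**Figure D1:**
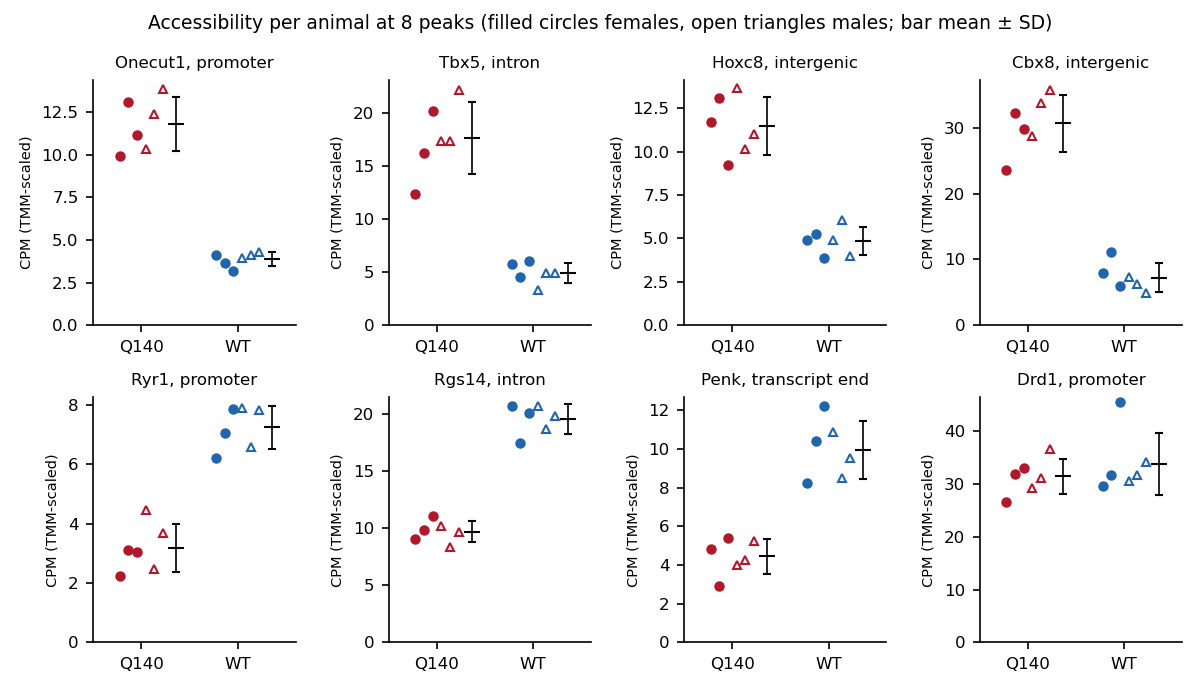
CPM of each animal at 8 peaks, with Q140 left of WT in each panel, filled circles for females, open triangles for males and a bar for the mean ± SD of 6 animals. The groups do not overlap at the Onecut1, Tbx5, Hoxc8, Cbx8, Ryr1, Rgs14 and Penk peaks, and they overlap at the Drd1 promoter, where WT F3 is highest at 45.5 CPM.

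Few promoters changed. Of 10167 tested promoter peaks, 190 were higher (1.87%) and 149 lower (1.47%), against 4.20% and 6.11% of all tested peaks, and their median change was 0.05. The split depended on the scaling and on single libraries: 349 were higher and 133 lower with scaling by total counts, and 648 and 214 with quantile normalization. More promoters were lower than higher with no filter on low counts (164 higher and 197 lower) and with the 12 libraries alone (169 and 176). Without Q140 F1 the promoter counts were 289 higher and 112 lower, without Q140 F2 115 and 160, without WT M2 118 and 228, and without WT F3 208 and 95. Promoter peaks took 21.2 ± 1.03% of counts in Q140 libraries and 20.0 ± 1.24% in WT libraries (SD, n = 6 each). Of the called promoters, 8 higher and 21 lower ones changed by more than 2-fold.

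Among the higher promoters, Onecut1 had the smallest p, with 9.92, 13.1, 11.1, 10.3, 12.4 and 13.8 CPM in Q140 animals F1 to F3 and M1 to M3, against 4.11, 3.66, 3.19, 3.95, 4.11 and 4.30 CPM in WT animals in the same order of labels. Every Q140 animal lay above every WT animal. The change was 1.60 ± 0.16 (adjusted p = 3.6e-09), with 1.64 in females and 1.56 in males. The Crnde promoter held 24.7, 33.6 and 36.7 CPM (lowest, median and highest) in Q140 animals, against 14.3, 16.3 and 19.2 CPM in WT animals. The groups were again apart, and the change was 1.00 ± 0.13 (adjusted p = 6.1e-07). Cpt2 encodes the carnitine palmitoyltransferase of the inner mitochondrial membrane, needed to burn long-chain fatty acids. Its promoter held 6.26, 7.35 and 10.5 CPM in Q140 animals and 2.62, 3.83 and 5.75 CPM in WT animals. It rose by 1.00 ± 0.18 (adjusted p = 7.9e-05), with no overlap. The other higher promoters with the smallest p belonged to Ptpn3, a protein tyrosine phosphatase, Vaultrc5, a vault RNA, Pgpep1l, Gm5640 and Emx2os, an antisense transcript beside the forebrain factor Emx2. Their changes ran from 0.78 at Ptpn3 to 1.16 at Pgpep1l, all with separated groups. Reads of Emx2os and Emx2 cannot be assigned to either gene, since ATAC-seq has no strand.

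Among the lower promoters, both peaks annotated to Serpina3g, a serine protease inhibitor, fell. The stronger held 1.29, 2.05 and 2.61 CPM in Q140 animals, against 7.30, 7.96 and 8.91 CPM in WT animals. The lowest WT value was above the highest Q140 value, and the changes of the pair were -1.96 ± 0.18 and -1.46 ± 0.18 (adjusted p = 7.7e-10 and 3.1e-07). Serpinb1b held 3.19, 4.11 and 5.20 CPM in Q140 animals and 7.04, 8.64 and 11.1 CPM in WT animals, a change of -1.09 ± 0.14 (adjusted p = 8.3e-07). These genes, the olfactory receptor gene Olfr577 (-2.01 ± 0.23) and the predicted genes Gm7244 and Gm6040 (-1.07 ± 0.14 and -1.44 ± 0.21) have close copies nearby or elsewhere, so reads may be split between copies. How multiply mapped reads were counted is not given in the sources used here. The remaining lower promoters of this set are those of Ryr1 and Prkcz. The Ryr1 promoter held 2.24, 3.09 and 4.45 CPM in Q140 animals, against 6.22, 7.43 and 7.90 CPM in WT animals. Its groups did not overlap, and the change was -1.19 ± 0.15 (adjusted p = 4.8e-07). Prkcz encodes an atypical protein kinase C that acts in cell polarity and at synapses. Its promoter held 6.73, 9.87 and 13.1 CPM in Q140 animals and 14.7, 17.8 and 22.5 CPM in WT animals, a change of -0.93 ± 0.13 (adjusted p = 2.1e-06).

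The sequence around higher and lower promoters can be described in part. A RefSeq window of 300 bases (250 before to 50 after the start) was matched to 7116 of the 10167 promoter peaks, among them 126 higher and 83 lower ones. The median GC content was 62.5% in higher, 54.3% in lower and 62.7% in all matched windows, and the median number of CpG dinucleotides was 19.5, 5 and 22. Motifs were searched on both strands. Those of activity-linked factors were AP-1, spelled TGANTCA, the cAMP response element or CRE, spelled TGACGTCA, and the EGR motif, spelled GCGTGGGCG. Those of lineage factors were an E-box of proneural factors, spelled CAGATG, a further E-box, spelled CAGCTG, the homeodomain motif TAATTA, the POU octamer ATGCAAAT, the FOX motif TGTTTAC, the MEIS motif TGACAG and the MEF2 motif TAAAAATAG. General promoter and other motifs were the GC box of SP and KLF factors, spelled GGGCGGG, the ETS motif CCGGAAGT, the CTCF core AGGGGGCGC and the C/EBP motif TTGCGCAA. The GC box and EGR motifs can overlap, since both hold GGGCG. AP-1 letters were in 12.7% of higher, 18.1% of lower and 4.79% of all matched windows. The GC box was in 54.0%, 24.1% and 50.4%, MEIS in 12.7%, 34.9% and 16.5%, and ETS in 7.14%, 1.20% and 8.07% of higher, lower and all matched windows. The other motifs were each in at most 24.1% of lower and 18.3% of higher windows. These shares describe letters in the windows, in sets of unequal GC content, and no test was made of them.

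The promoters of the striatal projection neuron markers named here did not pass the test in either direction. Ppp1r1b encodes DARPP-32, the dopamine-regulated phosphatase inhibitor. Its promoter held 56.5, 68.3 and 82.5 CPM in Q140 animals and 64.8, 81.3 and 107 CPM in WT animals, and the change was -0.22 ± 0.12 (adjusted p = 0.31). The Drd1 promoter held 26.6, 31.6 and 36.6 CPM in Q140 animals and 29.7, 31.7 and 45.5 CPM in WT animals (-0.11 ± 0.11, adjusted p = 0.68). The Drd2 promoter held 6.60, 8.09 and 9.69 CPM in Q140 animals and 6.30, 6.96 and 7.27 CPM in WT animals (0.23 ± 0.13, adjusted p = 0.31). The groups overlapped at each of these. The promoters of Adora2a, Penk, Tac1, Pdyn, Pde10a, Bcl11b, Foxp1 and Rgs9 gave values between -0.19 and 0.16, and the Htt promoter gave -0.02 ± 0.11, which checks no genotype. The SE of these promoters was 0.11 to 0.16. In the wider lists below, some promoter peaks did pass. Of 23 promoter peaks of projection neuron transcription factors 1 was higher, as was 1 of 23 of striatal G protein-coupled receptors. Of 44 promoter peaks of genes that carry cAMP, calcium and G protein signals, 4 were lower.

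Peaks of the transcription factors of these neurons went both ways, at shares near those over all tested peaks. Of 577 tested peaks of 25 such genes, 23 of them at promoters, 27 rose (4.68%) and 30 fell (5.20%). Over all tested peaks the shares were 4.20% and 6.11%. The median of the list was -0.06. Rarb, the retinoic acid receptor beta of the striatum, had 2 of the strongest losses, both in introns. The first (chr14:16746598-16747446) held 5.08, 7.08 and 7.64 CPM in Q140 animals and 11.8, 15.0 and 15.6 CPM in WT animals, a change of -1.10 ± 0.14 (adjusted p = 5.2e-07). An intronic peak of Foxp1, a forkhead factor of projection neurons, held 12.3, 17.8 and 23.3 CPM in Q140 animals and 5.52, 9.80 and 11.5 CPM in WT animals, a change of 0.98 ± 0.15 (adjusted p = 1.9e-05). A peak near Gsx2, which patterns the embryonic striatum, rose by 0.99 ± 0.16. No values overlapped between groups at these peaks. Without Q140 F2, 16 peaks of the list were higher.

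Peaks of ligands and receptors were mixed in direction. Neuropeptide and trophic factor genes had 12 higher (5.56%) and 12 lower (5.56%) of 216 peaks, against 4.20% and 6.11% over all tested peaks. Their lower count was 5 without Q140 M2 or without WT M3 and 6 without WT F3. It was 7 without Q140 F1, without WT M1, with scaling by total counts or with DESeq2. The peak past the transcript end of Penk (chr4:4132304-4133002), the enkephalin precursor of D2 neurons, held 2.89, 4.55 and 5.40 CPM in Q140 animals and 8.22, 9.96 and 12.2 CPM in WT animals. It fell by 1.15 ± 0.15 on the log2 scale (adjusted p = 6.1e-07), and every Q140 value was below every WT value. A peak 44.4 kb from the start of Tac1, the substance P precursor of D1 neurons, rose by 1.09 ± 0.17 (adjusted p = 9.5e-06). It held 5.79, 9.13 and 10.2 CPM in Q140 animals and 3.22, 4.11 and 5.17 CPM in WT animals. An intronic peak of Bdnf, a neurotrophin, rose by 1.04 ± 0.16, and a peak of Pnoc, the nociceptin precursor, gave -0.82 ± 0.14. Striatal G protein-coupled receptors had 15 higher (4.09%) and 23 lower (6.27%) of 367 peaks, near the shares over all tested peaks, with 14 lower without WT F3. Among them a peak near Cnr1, the cannabinoid receptor of projection neurons, gave 1.42 ± 0.22, with 3.02 to 5.75 CPM in Q140 animals and 0.96 to 1.94 CPM in WT animals. Peaks of Gpr149 went both ways, at 0.87 ± 0.15 and -1.17 ± 0.16. So did those of the serotonin receptor gene Htr4, where an intronic peak gave -0.95 ± 0.17. The Htr4 promoter gave 0.38 ± 0.13 (adjusted p = 0.044), with overlapping groups.

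Genes that carry signals through cAMP, calcium and G proteins had more lower than higher peaks. Of 1200 tested peaks of 50 genes, 32 were higher (2.67%) and 135 lower (11.3%), and the median was -0.13. Over all tested peaks the shares were 4.20% and 6.11%. The lower share also differed by level. Outside promoters it was 1.35% in the lowest and 12.4% in the highest of 5 equal classes by mean CPM. The list was not matched for level, so the part of level in its share was not tested. Lower peaks lay at 37 of the genes and higher peaks at 18. Of 44 promoter peaks in the list, 4 were lower and 0 higher. More were lower than higher in each of the 21 other settings tried, but the lower count was 85 without Q140 M2 and 69 without WT F3. Rgs14, a regulator of G protein signalling, had the smallest p. Its intronic peak (chr13:55373875-55374834) held 8.38, 9.76 and 11.1 CPM in Q140 animals and 17.4, 19.9 and 20.7 CPM in WT animals. The groups were far apart, and the change was -1.01 ± 0.12 (adjusted p = 8.1e-08). The Ryr1 promoter described above was the other leading loss. Gains in the list were led by introns of Rasgrf2, a Ras exchange factor, at 0.91 ± 0.15 and of Pde8b, a cAMP phosphodiesterase, at 0.79 ± 0.14. Pde10a, the cAMP and cGMP phosphodiesterase most abundant in projection neurons, had 18 lower (20.7%) and 0 higher of 87 peaks that span 428 kb, all 18 in introns. Their changes ran from -0.43 to -1.13, while the promoter gave -0.15 ± 0.12 (adjusted p = 0.53). Without WT F3, 9 of the Pde10a peaks were lower.

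**Figure D2:**
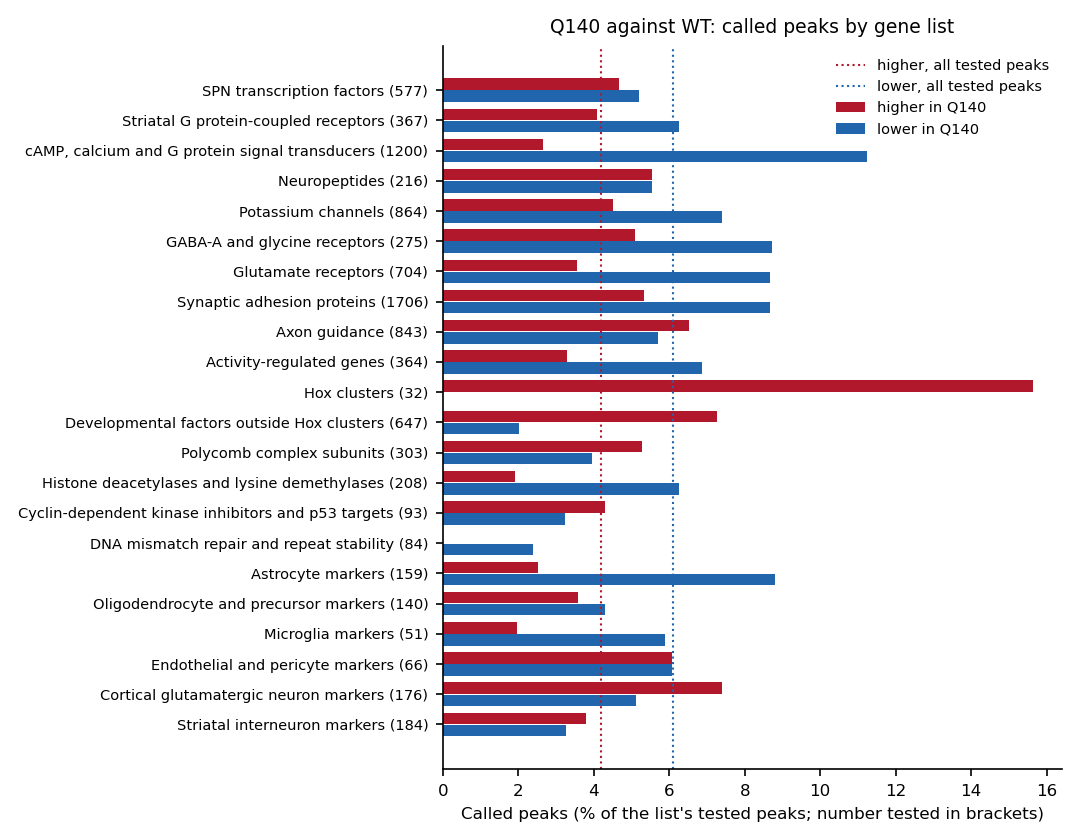
Share of tested peaks called higher in Q140 (upper bar) and lower in Q140 (lower bar) in each of 22 gene lists, with the number of tested peaks in brackets and dotted lines at the shares over all tested peaks (4.2% and 6.11%). Signal transducers reach 11.3% lower, and developmental factors outside the Hox clusters reach 7.26% higher against 2.01% lower.

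Channel and synaptic receptor genes had called peaks in both directions, and their shares are set beside the 4.20% higher and 6.11% lower over all tested peaks, where lower peaks were also the more numerous. Potassium channel genes had 39 higher (4.51%) and 64 lower (7.41%) of 864 peaks, with 42 higher and 41 lower without WT F3. Kcnj6, an inward rectifier opened by G proteins, held 1.85, 2.69 and 4.31 CPM in Q140 animals and 6.17, 7.27 and 8.45 CPM in WT animals at an intronic peak, a change of -1.38 ± 0.18 (adjusted p = 4.6e-07). A peak far from Kcna4, a fast-inactivating channel, rose by 1.54 ± 0.17, one near Kcnh5 by 1.49 ± 0.21, and one near the sodium-activated channel Kcnt1 gave -1.09 ± 0.17. Glutamate receptor genes had 25 higher (3.55%) and 61 lower (8.66%) of 704 peaks, with the metabotropic receptor Grm7 in both directions, at 1.63 ± 0.20, 1.16 ± 0.16 and -1.30 ± 0.20. Grm3, a presynaptic and glial metabotropic receptor, gave -0.95 ± 0.14. GABA-A and glycine receptor genes had 14 higher (5.09%) and 24 lower (8.73%) of 275 peaks, with the receptor subunit Gabrg3 at -1.12 ± 0.17. Gphn, the receptor scaffold gephyrin, gave 0.86 ± 0.15 and Gabrd, an extrasynaptic subunit, -0.64 ± 0.13. Leaving out WT F3 also left 34 lower glutamate receptor and 15 lower GABA-A and glycine receptor peaks, and 9 peaks of the GABA-A and glycine list were higher without Q140 F2.

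Adhesion and guidance genes hold many peaks. Synaptic adhesion genes had 91 higher (5.33%) and 148 lower (8.68%) of 1706 peaks, with 92 lower without WT F3. A peak 627 kb from Slitrk6, an adhesion protein with leucine-rich repeats, held 6.14, 7.73 and 10.4 CPM in Q140 animals and 0.912, 1.5 and 2.64 CPM in WT animals. It rose by 2.26 ± 0.21 (adjusted p = 7.7e-10), and the lowest Q140 value exceeded the highest WT value. Lrrc4c, a netrin-G ligand, had a gain of 1.41 ± 0.18 and a loss of -1.91 ± 0.22 at peaks far from its start, and Cadm2, another adhesion protein, a loss of -1.08 ± 0.13. Axon guidance genes had 55 higher (6.52%) and 48 lower (5.69%) of 843 peaks. The counts were 52 higher and 29 lower without WT F3, 44 and 59 without Q140 F2 and 45 and 56 without WT M2. More were lower than higher also with no filter (50 and 59), with the 12 libraries alone (51 and 56) and without Q140 F2 and Q140_Msh3KO M1 (47 and 50). Efnb2, a transmembrane ephrin ligand, led the gains at 1.54 ± 0.16 and 1.40 ± 0.18. Epha4, an ephrin receptor, and Plxna2, a semaphorin receptor, fell by 1.21 ± 0.18 and 1.00 ± 0.15 on the log2 scale. Activity-regulated genes had 12 higher (3.30%) and 25 lower (6.87%) of 364 peaks, against 4.20% and 6.11% over all tested peaks. These genes included Egr4 at -1.32 ± 0.20, Fosl2 at -1.16 ± 0.17, Egr3 at 0.68 ± 0.16 and Bdnf, with the peak given above. Their lower count was 12 without WT F3 or without Q140 M2, 15 without Q140 M1 and 16 with DESeq2, and their higher count was 7 without Q140 F2 and 19 with quantile normalization.

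Developmental regulators of other lineages had more higher than lower peaks. Of 647 tested peaks of 91 such genes outside the Hox clusters, 47 were higher (7.26%) and 13 lower (2.01%), with a median of 0.09. More were higher than lower in each of the 21 other settings, with 36 to 51 higher when a library was left out. The lower count was 8 without Q140 M2, without WT F3 or without WT M1. Tbx5, a factor of heart and forelimb, held 12.4, 17.4 and 22.2 CPM in Q140 animals and 3.36, 4.90 and 6.04 CPM in WT animals at an intronic peak (chr5:119844848-119845621). The Q140 animals were all above the WT animals, and the change was 1.81 ± 0.17 (adjusted p = 1.9e-09). Losses in the list were led by distant peaks of Atoh1, at -0.96 ± 0.14, and Foxd3, at -1.46 ± 0.24, factors of hindbrain neurons and of the neural crest. In the Hox clusters, which pattern the body axis, 32 peaks of 23 genes were tested. Of these, 5 were higher (15.6%) and 0 lower, against 4.20% and 6.11% over all tested peaks, with 3 higher without WT M2. The median was 0.35. A peak 9.07 kb from Hoxc8 held 9.23, 11.4 and 13.6 CPM in Q140 animals and 3.88, 4.93 and 6.03 CPM in WT animals, a change of 1.25 ± 0.15 (adjusted p = 9.8e-08). An intronic peak of Hoxa3 gave 0.88 ± 0.22, and its groups overlapped.

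Polycomb subunit genes had 16 higher (5.28%) and 12 lower (3.96%) of 303 peaks, against 4.20% and 6.11% over all tested peaks. The counts were 12 and 15 without Q140 F2 and 11 and 15 without WT M2. Of the higher peaks, 6 were consecutive at Cbx8, a chromobox protein of the repressive complex PRC1. This was the longest run of higher peaks among all tested peaks, over 22.8 kb (chr11:119034119-119056901). The peak 12.7 kb upstream of the start, annotated as a CpG island, held 23.6, 31.1 and 35.7 CPM in Q140 animals and 4.87, 6.81 and 11.1 CPM in WT animals. It rose by 2.12 ± 0.17 (adjusted p = 2.5e-10), with 1.80 in females and 2.44 in males. The promoter itself held 38.9, 46.3 and 54.0 CPM in Q140 animals and 27.2, 34.4 and 40.7 CPM in WT animals, so the groups overlapped, and the change was 0.42 ± 0.12 (adjusted p = 0.013). Losses in the list lay near Auts2 (-0.84 ± 0.14) and Yaf2 (-1.28 ± 0.22), both partners of variant PRC1 complexes. Histone deacetylase and lysine demethylase genes had 4 higher (1.92%) and 13 lower (6.25%) of 208 peaks, the lower share near that over all tested peaks. The higher count was 10 without WT F1 and 1 without WT M2. The promoter of Hdac1 gave 0.46 ± 0.13 (adjusted p = 0.014) and a peak near Kdm6b, a demethylase of the Polycomb mark, 0.46 ± 0.12. Peaks near Hdac2 and in Hdac4 gave -1.17 ± 0.15 and -0.77 ± 0.13. Cell cycle inhibitor and p53 target genes had 4 higher (4.30%) and 3 lower (3.23%) of 93 peaks, led by distant peaks of Ccng1 at 1.05 ± 0.18 and 0.98 ± 0.16. Mismatch repair and repeat stability genes had 0 higher and 2 lower (2.38%) of 84 peaks, among them a peak near Msh6 (-0.60 ± 0.18, adjusted p = 0.025). The groups overlapped at that peak, and none of the list was lower without Q140 F3, Q140 M2, WT F2, WT F3 or WT M1.

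**Figure D3:**
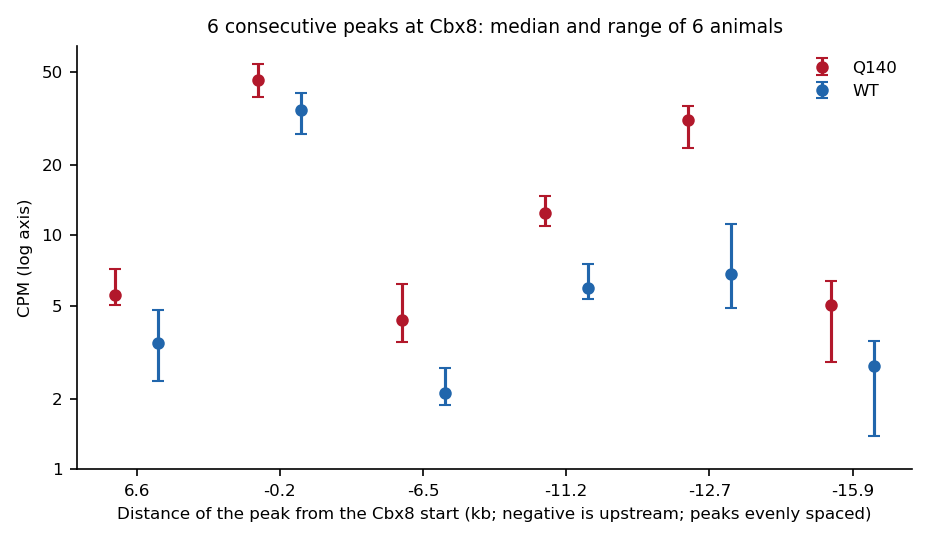
CPM on a log axis at the 6 consecutive called peaks around Cbx8, with Q140 left of WT at each distance from the start; points are medians and bars the range of 6 animals. Q140 medians lie above WT medians at every peak, by most at -12.7 kb (31.1 against 6.81 CPM), and the ranges overlap at the promoter and at -15.9 kb.

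Changed peaks had neighbours changed in the same direction more often than the shares over all tested peaks, but most had none. On either side, such a neighbour was met at 19.6% of higher and 22.6% of lower peaks. The next tested peak on the chromosome was also higher for 10.6% of higher peaks, against 4.20% of all peaks, and also lower for 12.3% of lower peaks, against 6.11% of all. Neighbours in the opposite direction were met at 4.38% of higher and 2.98% of lower peaks. The longest runs of lower peaks had 6 members each. They lay at Gm19410 on chromosome 8, within Cntnap2 on chromosome 6, near Gm7538 on chromosome 5, and across 9030624G23Rik and Taf1b on chromosome 12. Cntnap2 encodes a neurexin-related protein that clusters potassium channels on axons, and its run, in annotated introns, spanned 70.1 kb with changes from -0.93 to -0.59. The peaks of these runs had the direction of the run in females and in males alike. At the Gm19410 run the middle peak (chr8:35751676-35752287) held 5.90, 6.95 and 8.79 CPM in Q140 animals and 12.6, 16.3 and 21.9 CPM in WT animals. Its groups were separate, and the change was -1.21 ± 0.16 (adjusted p = 1.1e-06).

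Genes with many peaks collected many calls, nearly all away from their promoters, so each count is set beside its share, against 4.20% higher and 6.11% lower over all tested peaks. The gene with the most lower peaks was Celf2, an RNA-binding regulator of splicing, with 23 lower (11.7%) and 2 higher of 197, a smaller share than the 20.7% of Pde10a. Anks1b, a postsynaptic scaffold, had 20 lower (12.8%) and 6 higher of 156, all of the lower ones in introns, and Wwc1 (KIBRA), a synaptic and Hippo pathway protein, had 14 lower (16.1%) and 1 higher of 87. Nrxn3, a presynaptic adhesion protein, had 14 lower (10.4%) and 5 higher of 134. Rbfox1, a neuronal splicing factor, had 17 lower (9.14%) and 10 higher (5.38%) of 186, shares nearer those over all peaks. The promoter peaks nearest the starts of Celf2, Anks1b and Nrxn3 gave -0.14 ± 0.12, -0.11 ± 0.12 and -0.25 ± 0.14, none past the threshold. Without WT F3 the lower counts were 11 at Celf2, 11 at Anks1b, 8 at Wwc1, 7 at Nrxn3 and 9 at Rbfox1. The Celf2 count was 14 without Q140 F3 or M2 and 15 without WT M1. The Nrxn3 count was 9, 7 and 9 without Q140 F3, M1 or M2 and 8 without WT M3, and 5 higher Nrxn3 peaks became 2 or 3 without Q140 F2, F3 or M3 or without WT M2 or M3. The Rbfox1 count was 10, 11 and 10 without Q140 F1, M1 or M2 and 11 without WT M3, the Anks1b count was 13 without Q140 F3, and the Wwc1 count was 9 without Q140 M2.

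Higher peaks collected at other genes, mostly in the intergenic space around them. Tox3, a chromatin factor of the HMG box family, had 10 higher (35.7%) and 0 lower of 28 peaks that span 777 kb, with changes from 0.66 to 1.69, and its promoter gave 0.07 ± 0.16. Ttll7, a tubulin polyglutamylase of neurons, had 11 higher (25.0%) and 3 lower of 44, all of the higher ones intergenic. Slitrk5, a synaptic adhesion protein, had 10 higher (20.0%) and 3 lower of 50, and the non-coding genes 1700101O22Rik and Rprl1 had 11 of 54 (20.4%) and 9 of 19 (47.4%) higher. The 1700101O22Rik count was 6 without Q140 F2, and 7 without Q140 M2, WT M2 or WT M3.

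The shares of changed peaks are given by annotated class. Intergenic peaks were higher in 5.68% and lower in 6.91% of 54229, and more were higher than lower with scaling by total counts or without Q140 F1, Q140 M2 or WT F3. Intron peaks were higher in 3.85% and lower in 6.57% of 69022. Without WT F3, 2835 of the intron peaks were lower, against 4532 with all libraries. Peaks over 100 kb from a start were higher in 6.85% and lower in 6.91%, while those 1 to 10 kb from a start were higher in 2.68% and lower in 7.26%. Peaks annotated to CpG islands, which are mostly unmethylated CpG-rich stretches, were higher in 75 (2.83%) and lower in 23 (0.87%) of 2651. Both shares were under the 4.20% and 6.11% over all tested peaks. The higher count of CpG island peaks was 130 with scaling by total counts, 177 with quantile normalization, 47 without Q140 F2 and 48 without WT M2. The lower count was 15 without Q140 M1 or WT F3, 13 without WT M3 and 36 with quantile normalization. Of 5 equal classes by mean CPM, not divided by peak width, the highest had 9.70% lower and 3.37% higher peaks and the lowest had 1.33% and 2.40%.

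**Figure D4:**
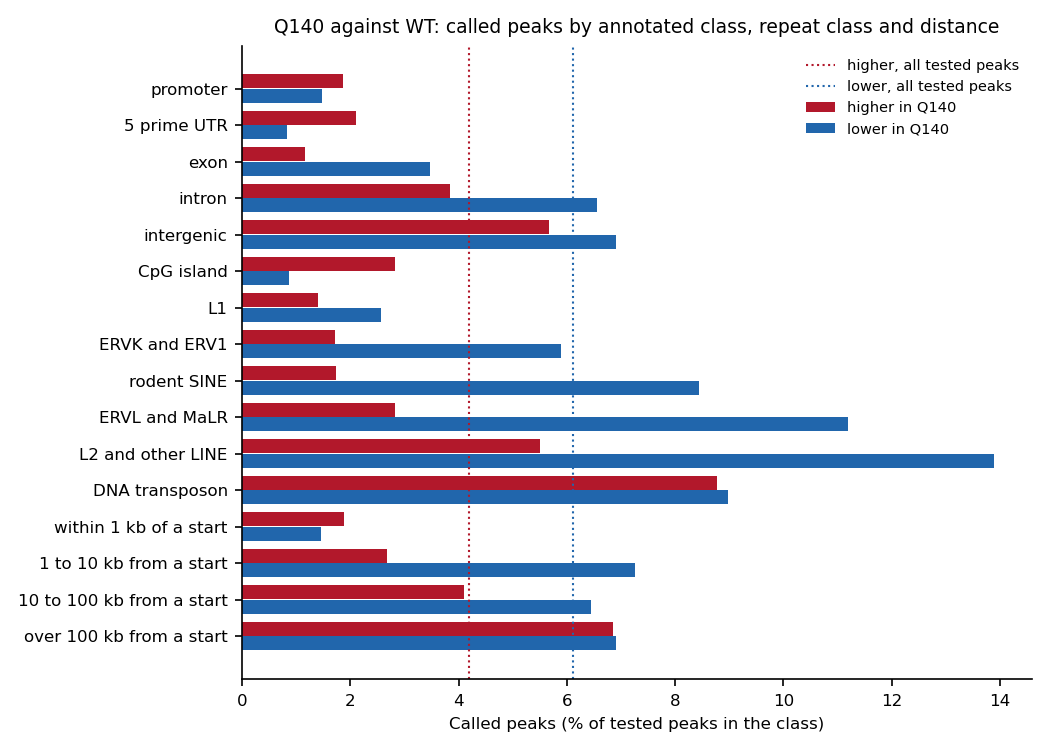
Share of tested peaks called higher in Q140 (upper bar) and lower in Q140 (lower bar), by annotated class, repeat class and distance from the nearest start, with dotted lines at the shares over all tested peaks (4.2% and 6.11%). Promoters lie below both lines, and L2, ERVL and MaLR and rodent SINE peaks lie above the line for lower peaks.

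Repeat-derived peaks, which stem from mobile elements, had more lower than higher peaks in most classes. Peaks in ERVL and MaLR long terminal repeats were lower in 431 (11.2%) and higher in 109 (2.83%) of 3850. Those in L2 and other ancient LINE elements were lower in 129 (13.9%) and higher in 51 (5.50%) of 928, and those in rodent SINEs lower in 303 (8.44%) and higher in 62 (1.73%) of 3588. Each of these 3 classes had more lower than higher peaks in each of the 21 other settings. The L1 class was lower in 2.57% and higher in 1.40% of 12519, both under the shares over all peaks. DNA transposon peaks were higher in 92 (8.78%) and lower in 94 (8.97%) of 1048. Their lower count was 50 without WT F3, 61 without Q140 M2 and 62 without Q140 F3, Q140 M1 or WT M1. As a share of each library's counts, ERVL and MaLR peaks took 1.47 ± 0.0504% in Q140 libraries and 1.61 ± 0.0767% in WT libraries (SD, n = 6 each). The exact two-sided permutation test gave p = 0.00649, and 0.108 after Benjamini-Hochberg adjustment over 25 classes, so it did not pass. CpG island peaks took 4.30 ± 0.133% in Q140 libraries and 4.01 ± 0.173% in WT libraries (exact permutation p = 0.013, adjusted 0.108), and 0 of the 25 classes passed, with 6 at an unadjusted p under 0.05.

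Peaks of marker genes of other cells changed in both directions. Astrocyte marker genes had 4 higher (2.52%) and 14 lower (8.81%) of 159 peaks, against 4.20% and 6.11% over all tested peaks. They had 8 lower without WT F3 and from 2 to 7 higher when a library was left out. Their promoter peaks summed to 38.7 to 47.2 CPM in Q140 animals and 34.6 to 55.3 CPM in WT animals. Peaks near the water channel gene Aqp4 (1.20 ± 0.21) and in Slc4a4, a bicarbonate transporter (-0.94 ± 0.15), led that list. Oligodendrocyte lineage genes had 5 higher (3.57%) and 6 lower (4.29%) of 140. Microglia genes had 1 (1.96%) and 3 (5.88%) of 51, and endothelial and pericyte genes 4 (6.06%) and 4 (6.06%) of 66. Oligodendrocyte lineage promoters summed to 30.3 to 37.9 CPM in Q140 animals and 29.4 to 37.7 CPM in WT animals. Microglia genes had a single promoter peak, with 2.23 to 5.43 CPM in Q140 animals and 2.17 to 4.34 CPM in WT animals. Cortical glutamatergic genes had 13 higher (7.39%) and 9 lower (5.11%) of 176, at 4 and 5 genes. The counts were 10 higher and 10 lower without WT M2, and 5 were lower without WT F3 or Q140 M2. Striatal interneuron genes had 7 (3.80%) and 6 (3.26%) of 184, with 2 to 3 lower without Q140 M1, Q140 M2 or WT M3 and 3 with DESeq2. Of the glial and vascular lists, the counts ran from 3 to 6 higher and 5 to 9 lower for oligodendrocytes when a library was left out, from 1 to 3 and 1 to 5 for microglia, and from 2 to 4 and 2 to 5 for endothelium. Interneuron promoters summed to 24.4 to 34.9 CPM in Q140 animals and 24.1 to 31.3 CPM in WT animals. A peak near Kit, a growth factor receptor of interneurons, held 10.2, 12.0 and 17.4 CPM in Q140 animals and 3.95, 5.40 and 6.86 CPM in WT animals (1.20 ± 0.14, adjusted p = 8.1e-08). The part of a changed cell mix in the results was not tested.

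Animals labelled female and male, which are separate animals, changed mostly in the same direction, with the sex of Q140 F2 in doubt. With 3 Q140 and 3 WT animals in each, 4435 peaks were called in females (1548 higher and 2887 lower) and 4274 in males (1949 higher and 2325 lower). Both sexes called 1995 peaks, 45.0% of those of females and 46.7% of those of males, and all 1995 had the same direction. Of the peaks called in females, 98.3% had the same sign in males, and of those called in males 98.5% had it in females, against 61.9% of all tested peaks. The higher peaks of females had a median change of 1.12 there and of 0.97 in males, and the lower peaks -0.94 and -0.74. The higher peaks of males had a median of 1.12 there and of 0.78 in females, and the lower peaks -1.06 and -0.81. In an alternative chosen after seeing the data, which leaves out Q140 F2 and so has 2 Q140 females, 2199 peaks were called in females (752 higher and 1447 lower) and 4554 in males. Of these, 99.1% of the peaks of females had the same sign in males, and 98.2% of the peaks of males had it in females, against 60.1% of all tested peaks. For 0 peaks (0% of those tested) did the change differ between the sexes by edgeR's quasi-likelihood interaction test, with 4806 at an unadjusted p under 0.05. The count was also 0 with DESeq2 size factors, with the 12 libraries alone and with each of the 12 libraries left out. The SE of the difference between the sexes had a median of 0.40 on the log2 scale, larger than the median SE of a change within females (0.28) or males (0.29), and the count of 0 does not show that the sexes respond alike.

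**Figure D5:**
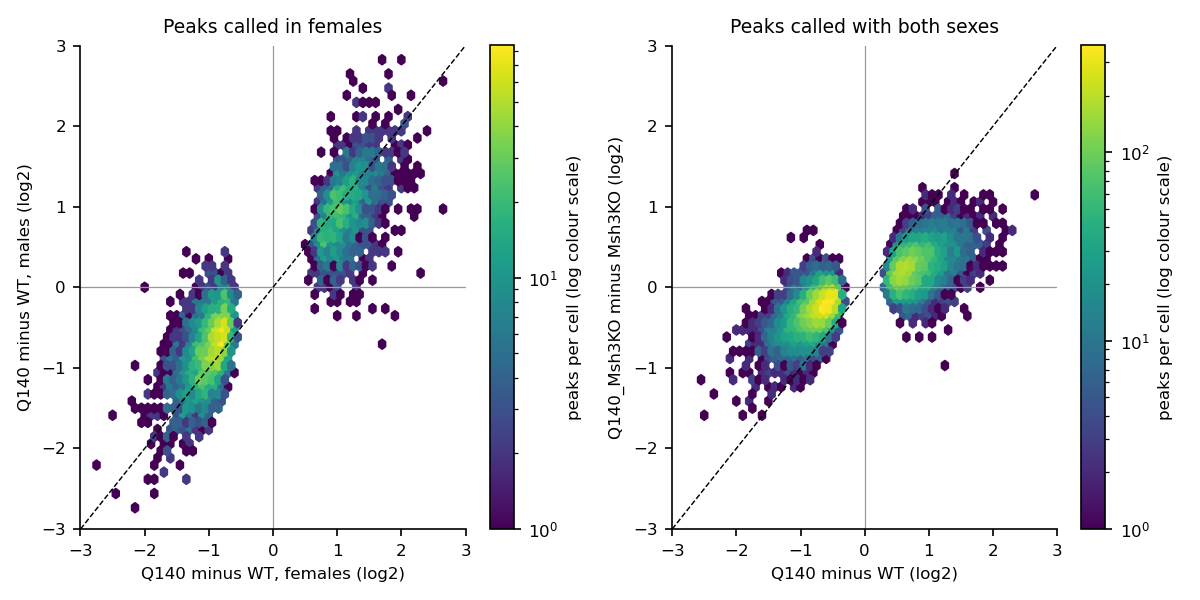
Left, log2 change in females (horizontal axis) and in males (vertical axis) for the 4435 peaks called in females. Right, change of Q140 against WT (horizontal axis) and of Q140_Msh3KO against Msh3KO (vertical axis) for the 15066 called peaks; colour gives the number of peaks on a log scale, the dashed line is equality, and most points share the sign of the horizontal axis, closer to 0 on the right.

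The same Htt allele was carried by animals lacking Msh3, which share no animal with the Q140 and WT groups. There the higher peaks had the same sign in 88.1% and the lower peaks in 92.3%, against 61.9% of all tested peaks. The peaks were chosen by their change in Q140 against WT, which had a median of 0.74 for higher and -0.68 for lower peaks, against 0.25 and -0.26 in Q140_Msh3KO against Msh3KO. The difference of these changes was itself called at 33 peaks (0.0226% of those tested), 19 of the higher and 14 of the lower ones, and at each of the 33 the change was nearer to 0 or opposite without Msh3. Onecut1 was among them, with 1.60 ± 0.16 in Q140 against WT and -0.03 ± 0.18 in Q140_Msh3KO against Msh3KO (adjusted p of the difference = 0.0016). Hoxc8 gave 1.25 ± 0.15 and -0.22 ± 0.16 (adjusted p of the difference = 0.0019), and the Cbx8 CpG island peak gave 2.12 ± 0.17 and 0.65 ± 0.18 (0.016). For the Penk, Rarb, Ryr1 and Rgs14 peaks the difference did not pass, with changes of -0.48, -0.27, -0.52 and -0.33 without Msh3.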

How the data were processed

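Open chromatin was measured by ATAC-seq in 24 libraries, and the authors deposited raw read counts per peak with an annotation of each peak. The submitters' processing notes name BWA, SAMtools, Picard, MACS2 and featureCounts and the build GRCm38; their versions, settings and treatment of reads with several matches were not given in the sources used here. The deposited table holds a single peak set for all libraries, and 281 peaks without a gene symbol were tested and put in no gene list. Annotated distances to the nearest start are the authors' deposited values, in bases.

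Counts were analysed with edgeR 4.0.16 (R 4.3.3): TMM scaling, filterByExpr with a minimum count of 10, genotype and sex as terms, and the robust quasi-likelihood test on all 24 libraries, with Benjamini-Hochberg adjustment over all tested peaks at 0.05. Animals are the replicates, 6 per genotype. CPM were computed from counts with TMM library sizes. The script was tested on simulated data. Alternatives used limma 3.58.1, DESeq2 1.42.0, other scalings, no filter, a replicate block, 12 libraries and each library left out. Same-numbered libraries correlated from -0.157 to 0.266, so the numbers were not taken as pairs. The median SE of a log2 change was 0.20, which limits precision. The parts of depth and of variation between animals in it were not tested.

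Named were the 8 higher and 8 lower promoters of smallest p, the 5 higher and 5 lower separated distal peaks with the largest difference in mean CPM, the 6 genes with most higher and with most lower peaks, in each of 22 gene lists the 2 higher and 2 lower peaks with the smallest p, the promoters of 13 striatal genes and the 5 longest runs; other peaks of these runs were added after their values were seen. Results at a few of these genes are not reported here. The members and lists were chosen with earlier results of these data known. Shares of counts were compared by exact permutation over 924 arrangements. Promoter sequences and windows are from RefSeq (GRCm38.p6), matched by symbol.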

Additional observations from a re-analysis of the deposited data

Results flagged for a closer look

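At 10 of 240 groups of 6 animals, over the named peaks and 4 measures of the libraries, the highest or lowest animal stood apart from the other 5 by more than Dixon's 95% limit, which chance does in about 1 in 20 groups. Among Q140 animals, Q140 F3 held 16.2 CPM at the stronger Efnb2 peak, against 9.19 to 11.3 CPM in the other Q140 animals, and 201 CPM at the Tsnax intron, against 106 to 129 CPM. Q140 F1 held 10.3 CPM near Tle4, against 14.3 to 16.6 CPM, 15.0 CPM at the Rgs9 promoter, against 22.0 to 25.6 CPM, and 34.5 CPM at the Htt promoter, against 42.9 to 47.9 CPM. Q140 M2 held 2.13 CPM at the Hoxa3 intron, against 3.00 to 3.36 CPM. Among WT animals, WT M3 held 11.8 CPM at the first Rarb intron peak, against 14.2 to 15.6 CPM in the other WT animals, and WT M2 held 2.47 CPM near Msh6, against 4.74 to 5.55 CPM. WT F1 held 5.05 CPM at the Kdr peak at -9.43 kb from its start, against 2.76 to 3.53 CPM, and WT F3 held 45.5 CPM at the Drd1 promoter, against 29.7 to 34.1 CPM.

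The change of Q140 against WT differed from that of Q140_Msh3KO against Msh3KO at 33 peaks by edgeR's interaction test, 19 of them higher and 14 lower in Q140.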

How the results depend on the processing

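Over the whole table, the 6142 higher and 8924 lower peaks became 6437 and 8512 with DESeq2 size factors, 7488 and 7999 with scaling by total counts, 5496 and 10411 with no filter, 5757 and 10013 with the 12 libraries alone, 5762 and 7895 with DESeq2, 6165 and 9050 with limma-voom, and 8414 and 9347 with quantile normalization. These settings kept 89.5% to 97.3% of the 15066 calls. Leaving out a library gave 4556 to 7150 higher and 5886 to 9949 lower peaks and kept 73.6% to 87.2% of calls. Promoter counts moved too: 349 higher with scaling by total counts, 648 with quantile normalization, and 115 to 289 higher and 95 to 228 lower with a library left out. The cause was not tested. None of the 116 named peaks changed direction. Of these, 1 to 5 lost their call with a library left out, and the calls lost in any setting included those at Msh6, C1qa, Rn45s, Filip1l and Hdac1. An offset for GC content was not run, since no genome of the build was at hand.

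With a replicate block, 6233 peaks were higher and 9244 lower, with 213 higher and 168 lower promoters, and no named call was lost. Same-numbered Q140 and WT libraries share only a number: their deviations correlated from -0.157 to 0.266, and 3 of 6 numbers correlated best with their own.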

Other observations

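The distal peaks with the largest differences in mean CPM lay at genes outside the lists. An intronic peak of Tsnax, a partner of the RNA-binding protein translin, held 106, 125 and 201 CPM (lowest, median and highest) in Q140 animals and 44.8, 60.3 and 94.2 CPM in WT animals, a change of 1.00 ± 0.15 (adjusted p = 3.5e-05). A peak 378 kb from Dipk2a held 10.4, 16.0 and 20.5 CPM in Q140 animals and 2.79, 3.98 and 5.10 CPM in WT animals, a change of 1.97 ± 0.16 (adjusted p = 4.3e-11). Its change without Msh3 was 1.16 ± 0.16. A peak far from the start of Eef2kmt rose by 0.82 ± 0.13. Lower peaks of this kind lay in introns of Smad4, the shared mediator of TGF-beta and BMP signals (-0.86 ± 0.14), and Filip1l (-0.38 ± 0.10), and far from Rragc, a GTPase that signals amino acids to mTORC1 (-1.14 ± 0.14), and E030025P04Rik (-1.07 ± 0.13). The peak over Rn45s, the ribosomal RNA precursor, gave -0.37 ± 0.11 (adjusted p = 0.015), with 5279 to 6620 CPM in Q140 animals and 6827 to 8588 CPM in WT animals. Ribosomal RNA genes are repeated, so its counts depend on how reads from copies were placed.

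Runs of 5 consecutive peaks were higher near Iqca and Ackr3 (median change 0.70), Pde1a (0.71) and Rprl1 (1.08). They were lower near Plekhh1 and Pigh (-1.06), Gsta3 (-0.82), Mtpap (-0.84) and Serpinb9c, Serpinb9d and Serpinb9f (-1.30). The Serpinb9 genes are close paralogs, so their reads may be split between copies.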
